A study of Mus musculus with 10 samples.

Results

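The 10 genes described here code for proteins that bring fatty acids into a fat cell, store them as triglyceride and release them again. They were taken by name: Fabp4, Fabp5, Lpl, Cd36, Plin2, Pnpla2, Lipe, Dgat1, Dgat2 and Scd1, out of 18384 genes listed in the mRNA-seq data. All 10 had enough counts to be tested, among 14009 genes tested. The cells were adipocyte precursors (APs), the stromal cells of fat that can become adipocytes, from the subcutaneous white adipose tissue of C57BL/6J mice. They were isolated on magnetic columns, first by removing CD45- and CD31-bearing blood and endothelial cells and then by keeping SCA-1-positive cells, and were cultured in DMEM F12 with fetal bovine serum. Of 6 libraries of poly-A RNA, 3 came from control APs (replicates 1 to 3) and 3 from APs kept with the type 2 cytokine IL-4 (replicates 4 to 6) for 4 days, and no adipogenic cocktail is named for these libraries. The cells were a sorted primary population and not a clone, and the labels do not say which mouse or culture each library came from.

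Fat cells take up fatty acids by a chain of steps. Lipoprotein lipase, coded by Lpl, is secreted and frees fatty acids from circulating triglyceride, the membrane protein CD36 takes them into the cell, and the fatty acid binding proteins FABP4 and FABP5 carry them through the cytosol. SCD1 desaturates some of them, the acyltransferases DGAT1 and DGAT2 add the last acyl chain of triglyceride, and perilipin 2, coded by Plin2, coats the lipid droplet in which triglyceride is kept. On demand adipose triglyceride lipase, coded by Pnpla2, takes off the first fatty acid and hormone-sensitive lipase, coded by Lipe, the next. Several of these genes are textbook targets of the adipocyte regulator PPAR gamma, whose part in the results below was not tested.

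IL-4 raised the uptake genes Lpl, Cd36 and Fabp4 and the droplet gene Plin2. The binding protein gene Fabp5 and the synthesis genes Dgat1, Dgat2 and Scd1 did not pass the test. Lpl was 3.30-fold higher, Cd36 2.80-fold, Fabp4 2.14-fold and Plin2 1.86-fold. Pnpla2 was higher by 1.22-fold and Lipe lower at 0.8 of control, both close to the threshold. In all, 5 of the 10 genes were higher at an adjusted p under 0.05 (edgeR's quasi-likelihood test, Benjamini-Hochberg over all genes tested), where 19.0% of all tested genes were, and 1 was lower, where 18.4% were. Lpl, Cd36 and Fabp4 also passed a log2 fold change of 1, so 3 of 10 did so against 5.77% of all tested genes. The other 4, Fabp5, Dgat1, Dgat2 and Scd1, did not pass. In 7 of the 10 the control and IL-4 libraries did not overlap in normalized counts, which was also so for 50.4% of all tested genes. Of these 7, Pnpla2 and Dgat2 did overlap in FPKM. The median log2 fold change was 0.29 over the 10 genes and 0.00 over all genes tested.

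**Figure D1:**
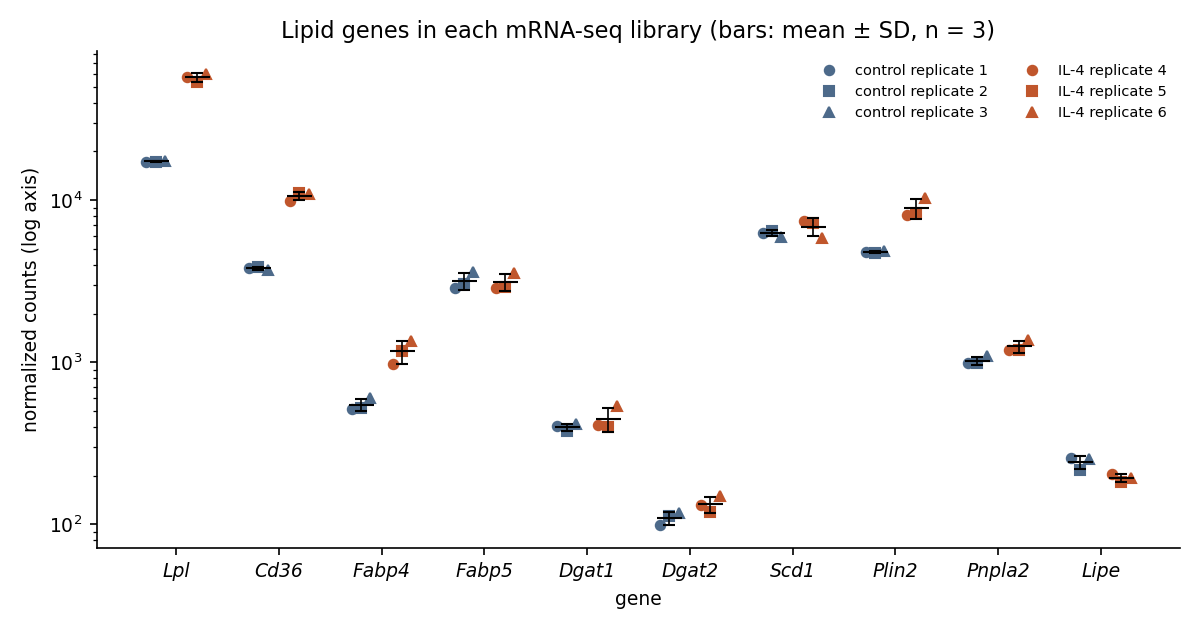
Normalized counts (log axis) of the 10 genes in each of the 6 mRNA-seq libraries, control in blue and IL-4 in orange, with the mean and SD of each group of 3. Lpl, Cd36, Fabp4 and Plin2 separate clearly between the groups, while the libraries of Fabp5, Dgat1 and Scd1 overlap.

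Normalized counts are read counts divided by each library's effective size, so they compare one gene between libraries. Levels of different genes are compared only in FPKM, which also divides by transcript length. The library totals were alike, from 28526782 to 29057787 expected counts. The scaling factors were not, at 1.053 to 1.072 in the controls against 0.932 to 0.961 with IL-4. With plain library totals instead, the median log2 change of all tested genes was -0.17, so a change near 0 depends on the scaling. Libraries also differed by transcript length. For genes with transcripts under 1000 bases, IL-4 replicate 6 had a median log2 deviation of 0.27 from its group mean and control replicate 3 of 0.12, and for transcripts of at least 6000 bases these were -0.27 and -0.13.

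Markers of other cell types moved with the groups. Of 12 macrophage markers 10 were lower with IL-4, Mrc1 was higher, and their summed FPKM was 3236 to 4163 in the controls against 1291 to 1674 with IL-4. Lyz2 carried most of that fall, at 2469 to 3225 FPKM in the controls and 673 to 937 after IL-4, and the other 11 summed to 737 to 938 and 618 to 737. Cd68 was at a log2 fold change of 0.38 and not called (adjusted p = 0.0572). Cells with CD45 were removed at isolation, yet its gene Ptprc had a mean of 2563 normalized counts in the controls against 1294 with IL-4. Macrophages are also known to express Lpl, Cd36, Plin2 and Fabp4, and the part of these cells in the results below was not tested. The defining markers of mature adipocytes were near 0, with a summed FPKM of 0.420 to 0.450 over the list in the controls against 0.910 to 1.09 with IL-4. Adrb3 made up 46.2% to 60.4% of these sums and was the only 1 of the 10 tested. Adipoq had 0, 0 and 2.81 normalized counts in the controls against 13.9, 9.61 and 10.3 with IL-4. Cfd went the other way, with a mean of 0.957 against 0, as did Pck1, with 0.317 against 0. Plin1, Cidea and Slc2a4 stayed low in both groups, and Lep, Retn and Cidec were not listed. Endothelial markers summed to 14.3 to 15 FPKM and 15.1 to 17.3, with 2 of 8 higher and 3 lower. Lymphocyte markers summed to 1.02 to 1.25 FPKM and 0.300 to 0.480, with 1 of the 2 that could be tested lower. The precursor markers were present in all libraries, at 3893 to 4251 FPKM in the controls against 4246 to 4664 with IL-4, but Col1a1 alone made up 80.8% to 82.8% of these sums. Within the list 5 of 10 were higher, among them Cd34 at 10.2-fold and Pi16 at 16.3-fold, and 2 were lower, among them Pdgfrb at 0.634 of control. In bulk RNA, fewer cells of a type and less RNA per cell cannot be told apart.

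Lpl (Entrez 16956, chromosome 8, 68880555 to 68906932 of GRCm38.p6) changed most among the 10. It had 17289.7, 17306 and 17454 normalized counts in the controls against 57744, 53723 and 60299 with IL-4. The 3 control libraries lay within a very narrow range, and every IL-4 library was above all of them. The means were 17349.6 ± 90.5 and 57255 ± 3315 (SD, n = 3 each), and the log2 fold change was 1.72 (SE 0.07, adjusted p = 8.06e-07), or 3.30-fold with a 95% interval from 2.97 to 3.67. Its log2 fold change ranked 402 of 14009. In FPKM Lpl went from 160.3 ± 2.19 to 469 ± 34.0, above 97.4% of the tested genes in the controls against 99.1% with IL-4. It made up 0.0639% of all counts in the controls against 0.187% with IL-4.

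Cd36 (Entrez 12491, chromosome 5, 17781690 to 17888959) had 3826, 3867 and 3695 normalized counts in the controls against 9875, 11087 and 10916 with IL-4. The lowest IL-4 library was far above the highest control. The means were 3796 ± 89.8 and 10626 ± 656, a log2 fold change of 1.48 (SE 0.07, adjusted p = 1.43e-06), or 2.80-fold with an interval from 2.52 to 3.11. In FPKM it went from 40.4 ± 0.598 to 101 ± 7.01. Lpl transcripts are long, at 4049 bases, and so are those of Cd36, at 3498 to 3522 bases. IL-4 replicate 6 differed from the mean of the other IL-4 libraries by a log2 of only 0.11 for Lpl and 0.06 for Cd36. Its median deviation from the group mean was -0.04 for transcripts of 3000 to 4000 bases and -0.13 for 4000 to 6000. Neither gene followed its length class in sign.

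Among 4 of the 10 genes with RefSeq promoter windows here (Cd36, Plin2, Lipe and Pnpla2, 5 windows in all), Cd36 alone held a match to the palindrome TTCNNNNGAA, the kind of site that STAT6, the transcription factor downstream of the IL-4 receptor, is known to bind. Of all 32851 RefSeq windows of 300 bases in this build 6.95% held it. The stretches around 1 annotated start of Cd36 and of Plin2, both called genes, are shown so that the match and its absence can be seen. Each runs 5′ to 3′ on the minus strand, from 250 bases before the annotated start to 30 after it, at chr5:17835867-17836146 for Cd36 and chr4:86670030-86670309 for Plin2 (GRCm38.p6). Capitals mark the match.
Cd36: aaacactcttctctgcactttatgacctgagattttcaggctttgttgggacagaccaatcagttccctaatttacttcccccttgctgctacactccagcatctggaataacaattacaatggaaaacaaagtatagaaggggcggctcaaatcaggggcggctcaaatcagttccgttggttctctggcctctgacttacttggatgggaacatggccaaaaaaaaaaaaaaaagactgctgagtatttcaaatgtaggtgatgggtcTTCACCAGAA
Plin2: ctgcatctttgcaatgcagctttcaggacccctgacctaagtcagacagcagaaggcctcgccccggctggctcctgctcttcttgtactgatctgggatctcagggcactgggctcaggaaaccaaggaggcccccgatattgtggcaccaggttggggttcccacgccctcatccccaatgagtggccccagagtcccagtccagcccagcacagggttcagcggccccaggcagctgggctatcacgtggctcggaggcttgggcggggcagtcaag
The Cd36 match, TTCACCAGAA, covered bases 21 to 30 after the start. The window was 43.2% G and C in Cd36 and 62.5% in Plin2. None of the 5 windows held the C/EBP-type motif TTGCNNAA (10.8% of all windows), the sterol element TCACNCCAC (1.24%) or the PPAR-type direct repeat AGGTCANAGGTCA (0.0396%), each searched on both strands. The Plin2 window held none of the 4 motifs. A match describes letters, and an absence says only that these letters are not in these windows.

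Fabp4 and Fabp5 are close relatives on the same chromosome, and they parted. Fabp4 (Entrez 11770, chromosome 3, 10204342 to 10208616), the binding protein of mature fat cells and of macrophages, had 512, 523 and 599 normalized counts in the controls against 974, 1168 and 1363 with IL-4. All IL-4 libraries were above all controls, with a wider spread among themselves. The means were 545 ± 47.5 and 1168 ± 195, a log2 fold change of 1.10 (SE 0.13, adjusted p = 0.000302), or 2.14-fold with an interval from 1.75 to 2.63. In FPKM it went from 34.8 ± 3.28 to 66.1 ± 11.9. Without IL-4 replicate 6, the highest library, the log2 fold change was 0.98 (adjusted p = 1.08e-05), just under 1, and with library totals it was 0.93.

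Fabp5 (Entrez 16592, chromosome 3, 10012585 to 10016610), the more widely expressed form, had 2881, 3025 and 3598 normalized counts in the controls against 2859, 2927 and 3538 with IL-4. The groups overlapped almost completely, and in each the library that stands apart by transcript length was the highest. The log2 fold change was -0.03 (SE 0.11, adjusted p = 0.869), and its interval in fold, from 0.822 to 1.17, leaves room for a small change either way. Fabp5 remained the more abundant of the pair in FPKM, at 129.8 ± 16.4 in the controls against 113 ± 15.5 with IL-4.

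The ratio of Fabp4 to Fabp5 FPKM within a library is free of the scaling between libraries. It was 0.278, 0.270 and 0.260 in the controls against 0.532, 0.622 and 0.6 with IL-4, 2.17-fold higher. Both are short transcripts, and IL-4 replicate 6 lay between the other IL-4 libraries in the ratio although it was the highest for each gene alone. An exact permutation test of 3 against 3 libraries gave p = 0.1, the smallest it allows (0.12 adjusted over the 6 ratios compared). Between the end of Fabp5 and the start of Fabp4 lie 187731 bases and 2 other protein-coding genes of the family, Pmp2 with 1 to 4 expected counts in any library and Fabp9 with at most 1.

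**Figure D2:**
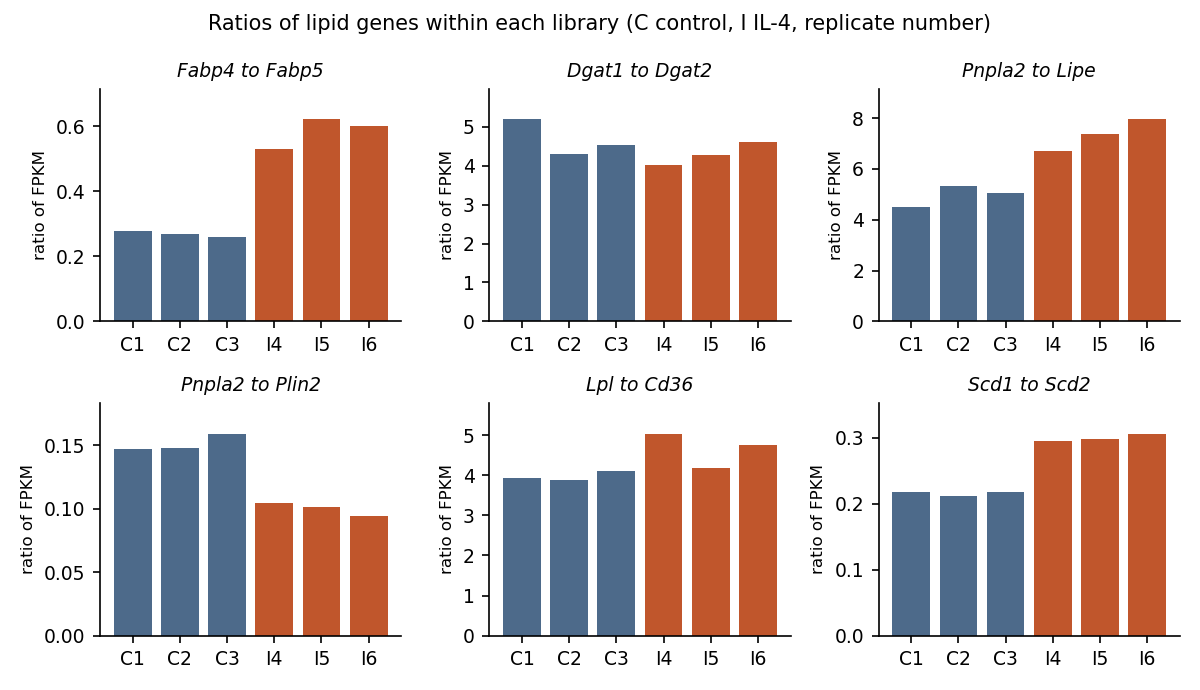
Ratios of FPKM between pairs of lipid genes within each library, controls (C1 to C3) in blue and IL-4 (I4 to I6) in orange, with axes from 0. The ratio of Fabp4 to Fabp5 was 2.17-fold higher with IL-4, Pnpla2 to Plin2 fell to 0.661 of control, and Dgat1 to Dgat2 overlapped between the groups.

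Of the genes of storage, Plin2 (Entrez 11520, chromosome 4, 86626910 to 86670217) was the one that passed the test. It had 4769.9, 4720.3 and 4877 normalized counts in the controls against 8079.7, 8294 and 10361 with IL-4. The controls were tight, and IL-4 replicate 6 stood above the other IL-4 libraries. The means were 4789 ± 80.2 and 8912 ± 1259.9, a log2 fold change of 0.90 (SE 0.10, adjusted p = 0.00021), or 1.86-fold with an interval from 1.59 to 2.18. Without IL-4 replicate 6 it was 0.78 (adjusted p = 4.19e-07). In FPKM Plin2 went from 97.0 ± 2.48 to 160.1 ± 25.4.

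The acyltransferases of the last step of triglyceride synthesis did not pass the test. Dgat1 (Entrez 13350, chromosome 15, 76502012 to 76512021) had 402, 377 and 416 normalized counts in the controls against 409.8, 399 and 536 with IL-4. Only IL-4 replicate 6 stood above the controls. The log2 fold change was 0.17 (SE 0.12, adjusted p = 0.318), with an interval in fold from 0.925 to 1.37, and with library totals it was 0.00. In FPKM the group means were 8.59 ± 0.495 and 8.58 ± 1.61.

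Dgat2 (Entrez 67800, chromosome 7, 99153663 to 99182713) was the lowest of the 10 in FPKM, at 1.85 ± 0.167 in the controls against 1.99 ± 0.250 with IL-4. It had 98.9, 112 and 117 normalized counts in the controls against 131, 119.6 and 149 with IL-4. In these counts the groups just failed to overlap, while in FPKM they did overlap. The log2 fold change was 0.28 (SE 0.13, adjusted p = 0.132), with an interval in fold from 0.986 to 1.5. The ratio of Dgat1 to Dgat2 FPKM was 5.19, 4.29 and 4.52 in the controls against 4.02, 4.27 and 4.62 with IL-4, and overlapped (exact permutation p = 0.4).

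Scd1 (Entrez 20249, chromosome 19, 44394450 to 44407709), the desaturase that makes monounsaturated fatty acids, had 6311, 6494 and 5950.5 normalized counts in the controls against 7477, 7249.8 and 5859 with IL-4. In both groups the library that stands apart by transcript length was the lowest, and IL-4 replicate 6 was the lowest of all. The log2 fold change was 0.13 (SE 0.10, adjusted p = 0.318), with an interval in fold from 0.941 to 1.28. Without IL-4 replicate 6 it was 0.24 (adjusted p = 0.00526), and without both that library and control replicate 3 it was 0.20 (adjusted p = 0.000617), while without control replicate 3 alone it was 0.10 (adjusted p = 0.551), so the call turned on IL-4 replicate 6. With all libraries and an offset for transcript length it was 0.13 and passed (adjusted p = 0.0234). That offset was fitted to each library's deviation from its own group mean, so it narrows the spread within groups by design. Calls over all genes rose with it, from 2663 higher and 2582 lower to 3689 and 3705. The pass is therefore not separate evidence of a change in Scd1. The log2 fold change turned to -0.04 (adjusted p = 0.732) with library totals. Scd1 counts were not whole in any library, as happens where reads are shared among similar genes, and its level is uncertain to that extent. Its neighbour and relative Scd2 was lower with IL-4, at 32678 ± 1825 and 25909 ± 3762 normalized counts, a log2 fold change of -0.33 (adjusted p = 0.043). The ratio of Scd1 to Scd2 FPKM was 0.218, 0.212 and 0.217 in the controls against 0.294, 0.298 and 0.306 with IL-4, 1.39-fold higher (exact permutation p = 0.1, adjusted 0.12). The IL-4 libraries lay close together in this ratio, replicate 6 included.

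**Figure D3:**
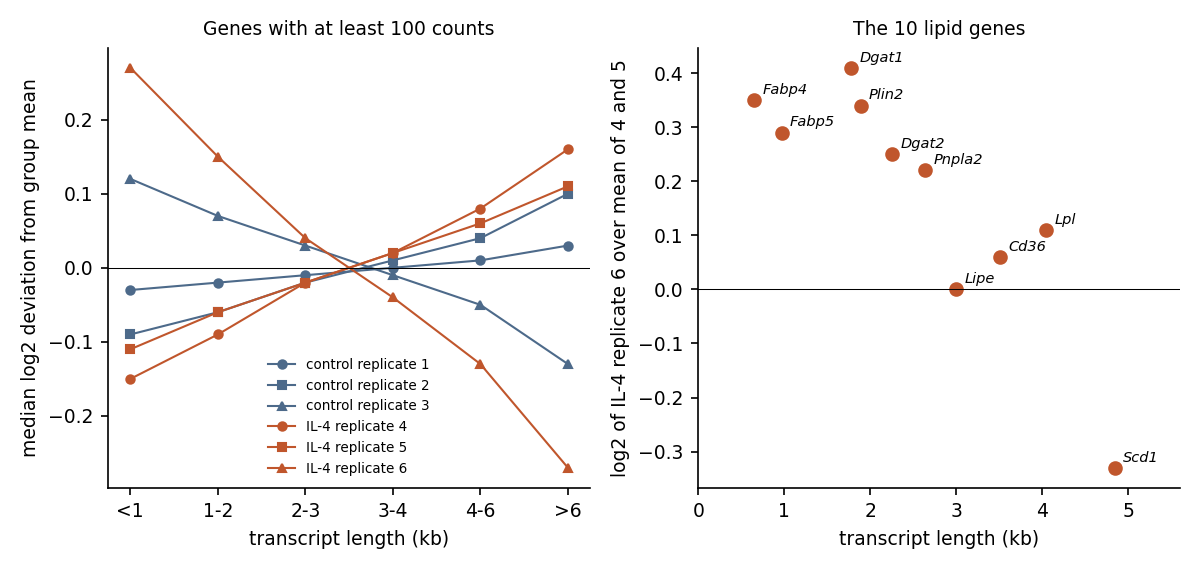
Left, median log2 deviation of each library from its group mean for genes with at least 100 mean counts, by transcript length in kb. Right, log2 of IL-4 replicate 6 over the mean of IL-4 replicates 4 and 5 for the 10 lipid genes, from 0.41 for Dgat1 to -0.33 for Scd1, the longest transcript.

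The lipases of triglyceride breakdown moved in opposite directions, each by little. Pnpla2 (Entrez 66853, chromosome 7, 141455188 to 141460743) had 991, 986 and 1094 normalized counts in the controls against 1192, 1184 and 1380.5 with IL-4. The groups did not overlap. The means were 1024 ± 60.6 and 1252 ± 111, a log2 fold change of 0.29 (SE 0.08, adjusted p = 0.0261), or 1.22-fold with an interval from 1.07 to 1.40. With library totals it was 0.12 (adjusted p = 0.323), and without control replicate 1 or 2 it was 0.27 or 0.26 and no longer passed (adjusted p = 0.102 and 0.0998). In FPKM the means were 14.7 ± 0.991 and 15.9 ± 1.69, and there the groups overlapped.

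Lipe (Entrez 16890, chromosome 7, 25379527 to 25398486) had 256, 216 and 253 normalized counts in the controls against 204, 183 and 193 with IL-4. Control replicate 2 lay close to the highest IL-4 library, and the groups did not overlap. The means were 242 ± 22.3 and 193 ± 10.9, a log2 fold change of -0.32 (SE 0.10, adjusted p = 0.0432), or 0.8 of control with an interval from 0.676 to 0.946. The call was lost without control replicate 1 (adjusted p = 0.145), control replicate 3 (0.119), IL-4 replicate 4 (0.0664), 5 (0.147) or 6 (0.0514), and with DESeq2 (0.0598). Its counts, too, were not whole in any library.

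Set against each other within a library, Pnpla2 and Lipe gave a ratio that restates their opposite changes. The ratio of Pnpla2 to Lipe FPKM was 4.51, 5.33 and 5.05 in the controls against 6.70, 7.38 and 7.95 with IL-4, 1.48-fold higher. Set against the droplet coat, the lipase fell behind. Pnpla2 to Plin2 was 0.147, 0.148 and 0.159 in the controls against 0.104, 0.101 and 0.0944 with IL-4, or 0.661 of control. Lpl to Cd36 was 3.92, 3.88 and 4.10 in the controls against 5.04, 4.18 and 4.76 with IL-4, 1.17-fold higher. For each of these ratios the libraries of the groups did not overlap, and the exact permutation p was the smallest possible, 0.1 (adjusted 0.12).

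**Figure D4:**
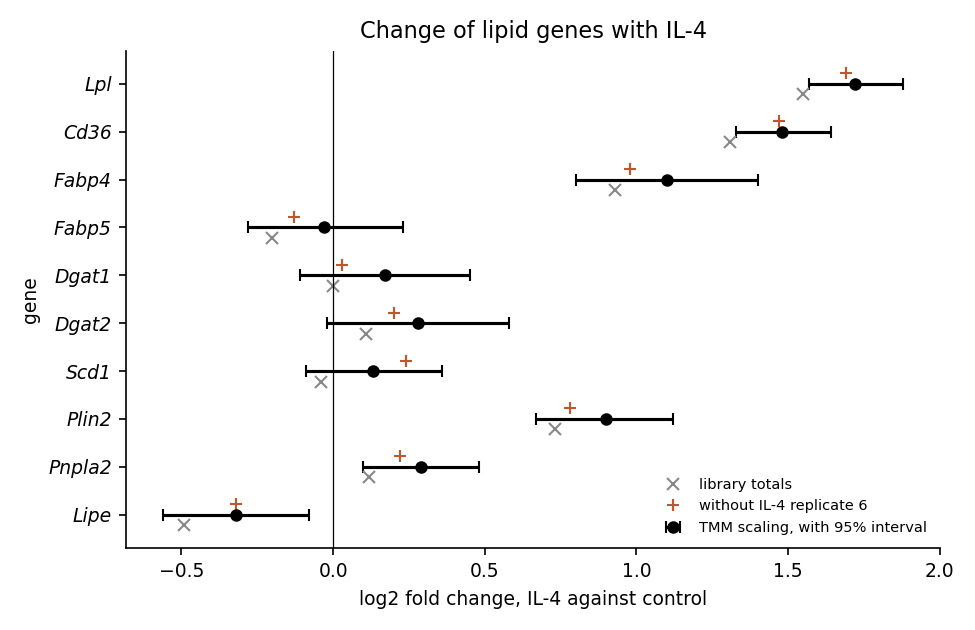
Log2 fold change of each gene, IL-4 against control, with its 95% interval (black), the value with library totals (grey crosses) and the value without IL-4 replicate 6 (orange plus signs). Lpl, Cd36, Fabp4 and Plin2 lie well to the right of 0 in all 3, while Scd1 crosses 0 with library totals.

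The order of the genes by FPKM changed in the middle. In the controls it ran Lpl, Fabp5, Plin2, Scd1, Cd36, Fabp4, Pnpla2, Dgat1, Lipe and Dgat2, and no neighbours overlapped. With IL-4 it ran Lpl, Plin2, Fabp5, Cd36, Fabp4, Scd1, Pnpla2, Dgat1, Lipe and Dgat2, and the libraries of Fabp5 and Cd36, and those of Lipe and Dgat2, overlapped. Thus Plin2 passed Fabp5, and Cd36 and Fabp4 passed Scd1. The 10 genes together summed to 524, 526 and 566 FPKM in the controls against 940.0, 933 and 1082 with IL-4. Lpl alone was 30.5%, 30.1% and 28.8% of that sum in the controls against 49.8%, 46.7% and 46.6% with IL-4. Over all genes, FPKM summed to 405313.5 to 434423.5 in the controls against 398800.7 to 453584.0 with IL-4. Control replicate 3 and IL-4 replicate 6 were the highest of their groups in that total too, so summed FPKM is not fully comparable between libraries.

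Other genes of the same pathways were taken from 5 fixed lists of 77 genes, of which 64 could be tested. Of these 20 were higher, 13 lower and 31 not called, with a median log2 fold change of 0.09, where 19.0% of all tested genes were higher and 18.4% lower. By list the share higher was 23.5% in uptake and activation, 30.8% in triglyceride synthesis, 62.5% in droplet proteins, 35.7% in lipolysis and 16.7% in desaturation and elongation, and the share lower was 23.5%, 23.1%, 0%, 7.14% and 41.7%. The lists are short, and several of these shares lie near those of all genes. With library totals 15 were higher and 19 lower, so the balance between the directions rests on the scaling.

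Proteins of the lipid droplet had the highest median. Of 8 tested, 5 were higher and none was lower, with a median log2 fold change of 0.64 (0.46 with library totals, again 5 higher). The broader Gene Ontology term lipid droplet, with 49 tested genes, had 12 higher, 8 lower and a median of 0.09. G0s2, a small inhibitor of the lipase made from Pnpla2, had 148 ± 27.6 normalized counts in the controls against 601 ± 135 with IL-4, a log2 fold change of 2.02 (adjusted p = 9.56e-05). Plin4, another perilipin, went from 93.7 ± 8.93 to 320.2 ± 40.4 (1.77, adjusted p = 2.34e-05). Hilpda, a further inhibitor of that lipase, changed by 1.05 (adjusted p = 0.00043), the seipin gene Bscl2, needed to form droplets, by 0.74 (adjusted p = 0.000257), and Plin3 by 0.53 (adjusted p = 0.000276), all on the log2 scale. The perilipin of mature fat cells, Plin1, stayed at or under 2.14 normalized counts in every library, and Cidec, of large droplets, was not listed.

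In the list of fatty acid uptake and activation 4 of 17 were higher and 4 lower, with a median of 0.09 (-0.08 with library totals). Angptl4, a secreted inhibitor of lipoprotein lipase, went from 984 ± 44.5 to 2389.8 ± 160.3 normalized counts (log2 fold change 1.28, adjusted p = 5.43e-06). Lmf1, which helps that lipase to mature, was higher by 0.47 on the log2 scale (adjusted p = 0.00149). Vldlr, a receptor for triglyceride-rich lipoproteins, was higher by 0.80 (adjusted p = 0.000146). Acsl3, an acyl-CoA synthetase of droplets, changed by -0.51 (adjusted p = 0.000432).

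In lipolysis and its control 5 of 14 were higher and 1 was lower, with a median of 0.11 (-0.07 with library totals, where 3 were higher and 4 lower). Mgll, the lipase of the last step, went from 321 ± 23.8 to 745 ± 29.6 normalized counts (log2 fold change 1.21, adjusted p = 1.39e-05). Abhd6 and Lipa passed at 0.30 and 0.18 (adjusted p = 0.0494 and 0.0291), but not with library totals, at 0.13 and 0.01. Abhd5, the activator of the lipase made from Pnpla2, was at 0.12 (adjusted p = 0.115).

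In the list of triglyceride synthesis, which also holds Soat1, 4 of 13 were higher and 3 lower, with a median of 0.05 (-0.12 with library totals). The lipins, which make diacylglycerol, went both ways, with Lpin3 at 1.21 (adjusted p = 3.06e-05) and Lpin2 at -0.57 (adjusted p = 0.00427) on the log2 scale. Gpat4, of the first acylation, was at -0.20 (adjusted p = 0.0338). Agpat3 and the sterol acyltransferase gene Soat1 passed at 0.30 and 0.20 (adjusted p = 0.00427 and 0.0332), but not with library totals, at 0.13 and 0.02.

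In desaturation and elongation 2 of 12 were higher and 5 lower, with a median of -0.13 (-0.31 with library totals). Elovl6, the elongase of saturated chains, went from 1041 ± 63.1 to 501 ± 68.9 normalized counts (-1.05, adjusted p = 0.000144). Hacd3 and the desaturase gene Fads2 changed by -0.46 and -0.40 (adjusted p = 0.000574 and 0.00885). Cyb5a, the electron donor of the desaturases, was higher by 0.83 (adjusted p = 0.000433).

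**Figure D5:**
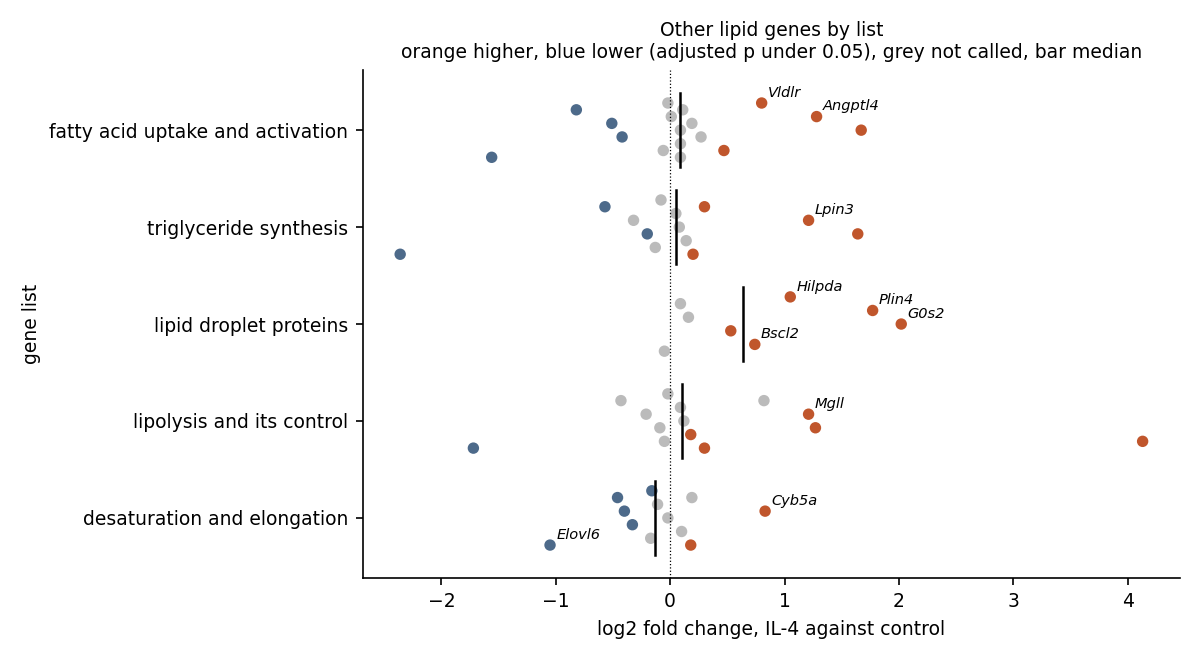
Log2 fold change, IL-4 against control, of the 64 tested genes of 5 lists of lipid genes, orange higher and blue lower at an adjusted p under 0.05, grey not called, with the median of each list as a bar. The list of droplet proteins has its median at 0.64 and no gene lower, and that of desaturation and elongation has 5 lower.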

How the data were processed

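Poly-A RNA of the 6 samples was sequenced by the study on the BGISEQ-500 platform. The authors mapped reads to mm10 with HISAT and took gene levels from RSEM on Bowtie2 alignments, and per the labels StringTie was also run (versions are not given in the sources used here). The deposited tables hold, per library, expected counts, FPKM normalized by the authors, and a transcript length in bases. From them 1 row per library with no gene name was left out, holding at most 0.00022% of counts. Of the expected counts above 0, 87.0% were whole. They were rounded and tested with edgeR 4.0.16 (R 4.3.3): filterByExpr with a minimum count of 10 and a minimum total of 15, TMM factors, quasi-likelihood fit and test over all 14009 genes kept, and Benjamini-Hochberg adjustment. A gene was called at an adjusted p under 0.05. The script was tested on simulated data. Ratios of FPKM were compared on the log2 scale by a two-sided exact permutation test. Sequences and coordinates are from RefSeq (GRCm38.p6).

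All 10 genes were named whatever their values, and from each list up to 5 called genes with the largest change, among those whose groups did not overlap and whose mean normalized count reached 100. Plin1, Cidec, Abhd5 and the marker genes are named beyond that rule, after their values were seen, and some genes that meet it are not reported here. The genes and lists were chosen with earlier results of these data known. DESeq2 1.42.0, limma 3.58.1 on log2 values of FPKM plus 1 or plus 0.1, other scalings, no filter and libraries left out were tried as alternatives. Since the labels do not tie libraries to animals or cultures, p-values measure only the spread between these samples. The 4 small RNA libraries and protein sequences were not used here.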

Additional observations from a re-analysis of the deposited data

How the results depend on the processing

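Over 15 alternatives Lpl (log2 fold change 1.54 to 1.78), Cd36 (1.30 to 1.54), Fabp4 (0.89 to 1.22) and Plin2 (0.71 to 0.97) were called in each. Pnpla2 (0.11 to 0.34) was called in 9 and Lipe (-0.49 to -0.27) in 8. Dgat1 (-0.02 to 0.26), Dgat2 (0.07 to 0.36) and Fabp5 (-0.20 to 0.07) were called in none and Scd1 (-0.05 to 0.24) in 3, among them an offset for transcript length (0.13, adjusted p = 0.0234). That offset and leaving out control replicate 3 and IL-4 replicate 6 together were chosen after seeing the data. The offset narrows the spread within groups by design.

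The number of the 10 genes called lower was 1, and 0 with DESeq2 and without both of those libraries; with 1 library left out it was 0 to 1. Over all genes 2663 were called higher and 2582 lower. With the offset for transcript length these were 3689 and 3705, and without both control replicate 3 and IL-4 replicate 6 they were 3576 and 3520. With library totals these were 1704 and 4963, with limma on log2(FPKM + 1) 1697 and 4916, and on log2(FPKM + 0.1) 1694 and 4904, where the median of all genes was -0.17, -0.13 and -0.17. Pnpla2 was also not called with upper-quartile scaling (0.27, adjusted p = 0.0616). The sign turned for Dgat1 on those FPKM scales (-0.01 and -0.02), for Scd1 with library totals (-0.04) and FPKM (-0.05 and -0.05), and for Fabp5 without control replicate 3 (0.07), IL-4 replicate 4 (0.04) or IL-4 replicate 5 (0.02). None of the values that turned was called. The cause was not tested. No paired analysis was possible because the control libraries are numbered 1 to 3 and the IL-4 libraries 4 to 6.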

Other observations

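Genes of low counts in the same lists also moved, and were named after their values were seen. Pnpla3, a lipase related to Pnpla2, had 2.85, 3.84 and 0 normalized counts in the controls against 40.7, 27.8 and 53.7 with IL-4 (edgeR log2 fold change 4.13, adjusted p = 0.000625). It passed the count filter only through the IL-4 libraries, and the controls were near 0, so its fold and p-value carry little weight. Gpat3, an acyltransferase of the first step, listed in the files under its older symbol Agpat9, went from 38.9 ± 5.47 to 122 ± 16.2 (1.64, adjusted p = 0.00015). Mogat2, of the monoacylglycerol route to triglyceride, went from 42.1 ± 4.03 to 8.06 ± 3.05 (-2.36, adjusted p = 0.000305). Gpihbp1, which holds lipoprotein lipase at the capillary wall, went from 31.3 ± 5.89 to 10.6 ± 2.88 (-1.56, adjusted p = 0.00315). Mogat2 and Gpihbp1 passed the filter only through the controls, so the same limit holds for them. Adrb3, the adrenergic receptor typical of fat cells, went from 17.1 ± 1.07 to 41.5 ± 5.49 (1.27, adjusted p = 0.00162).

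Gene Ontology terms in the deposited tables were counted after the values were seen. Under lipid storage 7 of 15 tested genes were higher and none lower, with a median log2 fold change of 0.28. These include Plin2, Pnpla2, Dgat1 and Dgat2, of which Plin2 and Pnpla2 were among those higher. Of all tested genes 19.0% were higher and 18.4% lower. Under lipid droplet, which includes Plin2, Pnpla2, Lipe and Dgat2, 12 of 49 were higher and 8 lower (0.09). Under lipid catabolic process, with Lpl and Lipe, 18 of 42 were higher and 7 lower (0.10). Under triglyceride biosynthetic process, with Lpl, Dgat1 and Dgat2, 4 of 11 were higher and 3 lower (0.17). Long-chain fatty acid transport, with Plin2, had 1 of 4 higher and none lower (0.02).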
